A study of Mus musculus with 22 samples.

Results

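Back skin of wild-type mice at postnatal day 23 (P23), in the first telogen, the resting phase of the hair cycle, was compared with back skin of wild-type mice at postnatal day 14 (P14), when the first hair coat was still growing. The members are the arrays titled as wild-type back skin of these 2 ages, 3 at P23 and 3 at P14, which are 6 of the 22 arrays of the series. The study profiled K14-DN-Clim mice, which carry a dominant-negative form of the CLIM transcriptional cofactors under the keratin 14 promoter of basal keratinocytes, together with wild-type littermates. All mice were CB6F1 animals. Wild-type skin at P6 (5 arrays) and DN-CLIM skin at P23 and P14 (3 arrays each) are used here for comparison, and DN-CLIM skin at P6 (5 arrays) entered only the estimate of the spread. The series' design text counts mice per age, but no label ties an array to 1 mouse. Sex, time of day at collection and array batch are not given in the sources used here, and p-values measure the spread between these samples, which may be technical in part.

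Each mouse hair follicle passes through growth (anagen), regression (catagen) and rest (telogen), and in mice the first cycles run in step over the back. During anagen, matrix cells at the base of the follicle divide around the dermal papilla and differentiate into the hair shaft, built from hair keratins and keratin-associated proteins, and into the inner root sheath that moulds it. In telogen the lower follicle is gone and a club hair, the bulge with its stem cells, a small secondary germ and the dermal papilla remain.

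Promoters of hair fibre and cell division genes with large falls, among those that have a promoter entry, are shown first because both groups were among those that fell. The sequences are the 250 bases before the annotated gene start, in the direction of the gene, from RefSeq on GRCm38.p6. Capitals mark CTTTGAA, the core bound by LEF1 and TCF factors, TTTGAA, which overlaps the last 6 letters of CTTTGAA and spells the CHR element of late cell cycle promoters, and TATAAA, the TATA box.
Krt34, chr11:100041555-100041804, minus strand: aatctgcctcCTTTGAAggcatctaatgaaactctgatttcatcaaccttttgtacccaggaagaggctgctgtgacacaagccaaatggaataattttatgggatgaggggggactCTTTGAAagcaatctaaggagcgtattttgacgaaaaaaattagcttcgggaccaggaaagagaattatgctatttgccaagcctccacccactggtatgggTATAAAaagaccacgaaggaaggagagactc
Krt25, chr11:99322952-99323201, minus strand: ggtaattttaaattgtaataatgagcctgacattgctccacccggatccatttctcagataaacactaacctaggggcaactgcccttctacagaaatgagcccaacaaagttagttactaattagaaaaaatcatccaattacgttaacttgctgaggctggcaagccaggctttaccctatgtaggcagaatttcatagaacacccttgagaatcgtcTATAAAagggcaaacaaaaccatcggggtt
Krtap8-1, chr16:89487953-89488202, minus strand: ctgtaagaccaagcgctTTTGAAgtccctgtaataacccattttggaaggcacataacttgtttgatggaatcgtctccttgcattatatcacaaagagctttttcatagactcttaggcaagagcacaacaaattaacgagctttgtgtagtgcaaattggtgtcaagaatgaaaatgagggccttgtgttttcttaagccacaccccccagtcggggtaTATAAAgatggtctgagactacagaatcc
Krtap19-5, chr16:88896450-88896699, minus strand: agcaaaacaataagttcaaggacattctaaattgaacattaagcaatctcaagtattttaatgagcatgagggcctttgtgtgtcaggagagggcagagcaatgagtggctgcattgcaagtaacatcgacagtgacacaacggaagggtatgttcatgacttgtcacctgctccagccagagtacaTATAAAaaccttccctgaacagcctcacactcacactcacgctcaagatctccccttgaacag
Cdc20, chr4:118437344-118437593, minus strand: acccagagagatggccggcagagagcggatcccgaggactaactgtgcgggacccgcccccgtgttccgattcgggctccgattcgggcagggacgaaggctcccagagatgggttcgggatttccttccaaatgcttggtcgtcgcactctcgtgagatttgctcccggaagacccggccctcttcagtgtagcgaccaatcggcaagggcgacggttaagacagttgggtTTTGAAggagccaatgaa
Mki67, chr7:135716380-135716629, minus strand: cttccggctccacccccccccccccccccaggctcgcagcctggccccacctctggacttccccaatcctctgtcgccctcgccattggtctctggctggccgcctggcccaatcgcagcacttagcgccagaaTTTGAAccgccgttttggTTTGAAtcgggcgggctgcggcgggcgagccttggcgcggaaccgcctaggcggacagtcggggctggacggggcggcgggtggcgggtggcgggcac
The TATA letters began 31 bases before the start in Krt34, 30 in Krt25, 29 in Krtap8-1 and 63 in Krtap19-5. Krt34 also held CTTTGAA at 2 places, 240 and 133 bases before the start. In Cdc20 the letters TTTGAA began 18 bases before the start, and in Mki67 they stood 116 and 98 bases before it. The window of Mybl2, another cell division gene, held none of the motifs searched in cell cycle genes.

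Of the 27 hair keratin, keratin-associated and inner root sheath genes that fell, 21 had a promoter sequence. TATAAA, searched on the gene's strand after the sequences had been seen, was in 14 of these 21 (66.7%) and in 8.12% of all 27025 promoters. CTTTGAA, searched on both strands, was in 6 of the 21 (28.6%) and in 4.64% of all promoters. Of the 48 mitosis and S phase genes that fell, 42 had a promoter sequence, and TTTGAA on either strand was in 14 of them (33.3%), against 16.3% of all promoters. The E2F letters TTTCCCG were in 4 of the 42 (9.52%) and TTTGGCG in 2 (4.76%), against 2.82% and 1.28% of all promoters. In the hair set, TTTGAA, which CTTTGAA contains, was in 10 of the 21 (47.6%), TTTCCCG in 2 (9.52%) and TTTGGCG in 0. TTTGAA and TTTCCCG were therefore not particular to the cell division genes. Of the 42 cell division promoters, TATAAA was in 1 (2.38%) and CTTTGAA in 3 (7.14%). Over the 6576 genes on the array with a promoter sequence, the shares were 6.45% for TATAAA, 3.83% for CTTTGAA, 11.6% for TTTGAA, 4.38% for TTTCCCG and 2.13% for TTTGGCG. A match is a run of letters, and binding was not measured.

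Each array held 12422 probe sets once control probe sets were left out. The signals were MAS5 signals, scaled by the authors so that every array had the same trimmed mean, and differences below are of log2 signal, P23 minus P14, from a limma fit over all 22 arrays with Benjamini-Hochberg adjustment at 0.05. At P23, 2292 probe sets were higher and 2023 lower than at P14, together 34.7% of those tested, and 1275 rose and 932 fell at least 2-fold. Per gene, with the brightest probe set standing for it, 40.0% of 8251 genes were called, 21.4% as higher and 18.6% as lower, and the median difference over all genes was -0.01. The counts of every list below are to be read against these 21.4% and 18.6%. The 3 P23 arrays did not overlap the 3 P14 arrays in 51.5% of probe sets, being all higher in 25.9% and all lower in 25.7%. Of an array's total signal, between 4.30% and 5.04% at P23 and between 8.59% and 9.44% at P14 came from its 20 brightest probe sets. Array medians (log2) were 7.79 to 7.80 at P23 and 7.64 to 7.68 at P14. With arrays centred on their medians, the share of higher calls moved to 42.1%, against 53.1% as scaled by the authors. Centring on ribosomal protein genes gave 71.6%. The median difference over all probe sets was -0.17 with median centring and 0.17 with ribosomal centring, against -0.04 as scaled, so directions of small differences depend on the scaling. Xist was high on 1 of 3 P23 arrays and 2 of 3 P14 arrays, so the sexes may not be balanced.

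The label of back skin was checked against marker genes. Krt10, a keratin of differentiating epidermis, gave signals of 18006, 16999 and 15753 at P23 and 9298, 8239 and 8836 at P14, and the dermal collagen gene Col1a1 gave 25990, 25335 and 22033 at P23 and 22584, 26760 and 25620 at P14. Probe sets of the basal keratins were near the bottom of the array at both ages. Krt14 gave 23.5, 16.8 and 12.6 at P23 and 25.9, 23.0 and 22.9 at P14 and Krt15 gave 5.55, 7.20 and 3.14 at P23 and 4.29, 3.55 and 4.31 at P14, so neither age can be described for these basal keratins from this array.

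**Figure D1:**
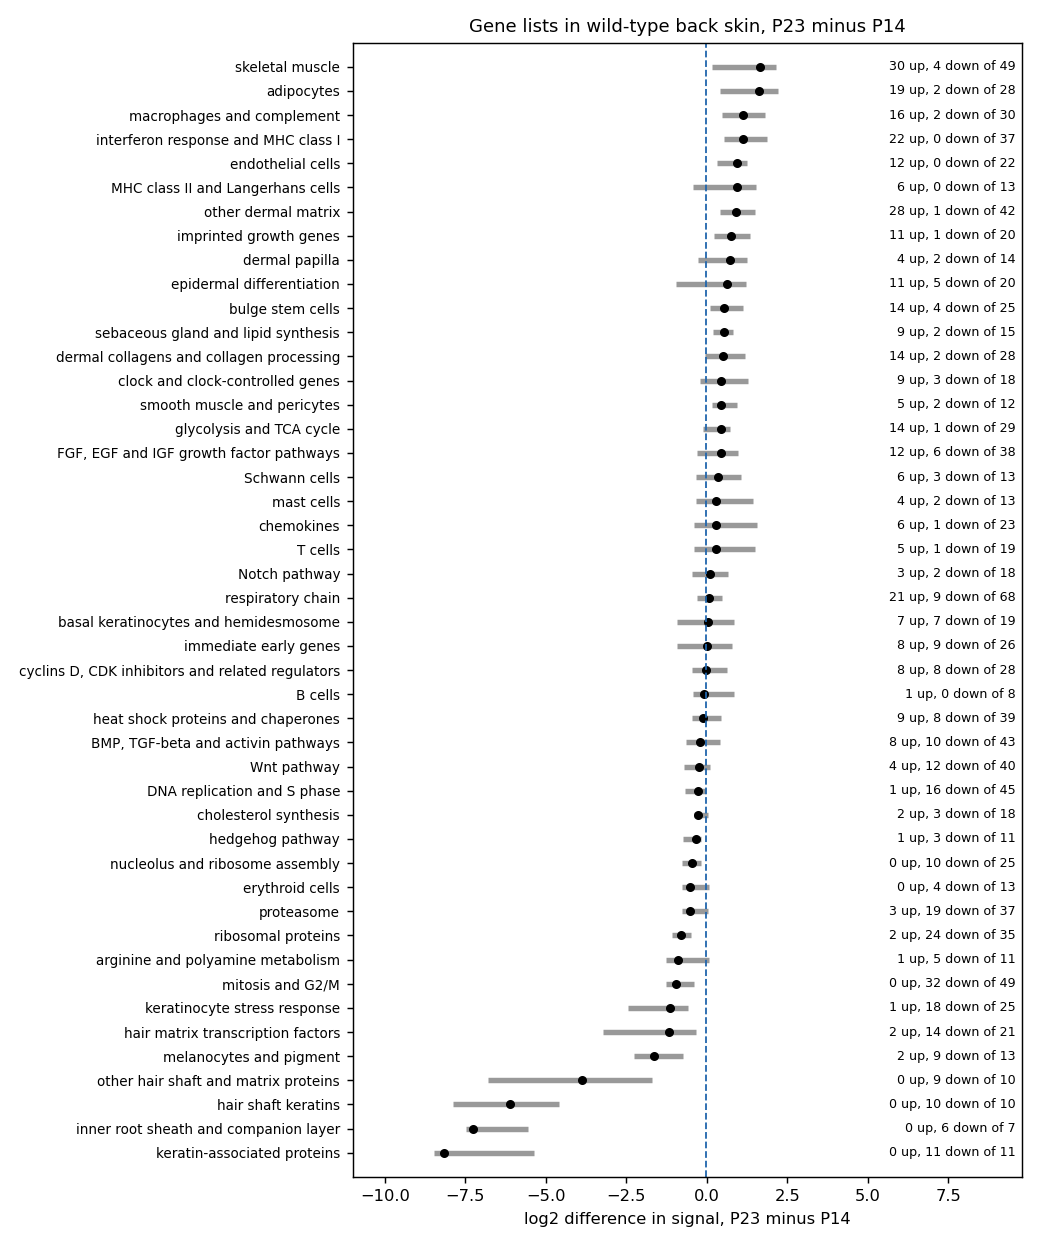
Median log2 difference in signal, P23 minus P14, for each gene list in wild-type back skin (black points), with the middle 50% of its genes (grey bars), the median of all 8251 genes (dashed line) and the number of genes called higher or lower of those measured. Hair fibre lists lie at the bottom, with medians of -8.16 to -3.90, and skeletal muscle and adipocyte lists at the top, at 1.64 and 1.61.

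Lists of hair fibre genes had the lowest medians of all lists. All 10 hair shaft keratins on the array fell, with a median of -6.10, and all 11 keratin-associated proteins fell, with a median of -8.16, against the 18.6% of all genes called lower. Krt34, a type I hair keratin, gave 71.1, 21.8 and 78.7 at P23 and 22385, 24540 and 24348 at P14. Krt31, another type I hair keratin of the cortex, gave 146, 85.5 and 104 at P23 and 28681, 33717 and 33838 at P14. Both were low on each P23 array and high on each P14 array, with no overlap, as were 25.7% of all probe sets. The fitted differences were -8.90 ± 0.40 for Krt34 (SE, adjusted p = 6.36e-14) and -8.19 ± 0.23 for Krt31 (adjusted p = 6.42e-18), with 3 arrays a group as for all differences below. The smallest falls among the hair keratins were those of Krt36 (-2.67) and Krt84 (-2.19). In whole skin, fewer cells of a type and less RNA per cell cannot be told apart, here and in all lists below.

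Keratin-associated proteins cross-link the keratin filaments of the shaft. Krtap9-1, of the cysteine-rich kind, gave 46.4, 41.8 and 26.8 at P23 and 49952, 58057 and 53087 at P14, a difference of -10.49 ± 0.20 (adjusted p = 1.28e-20). Krtap8-1, rich in glycine and tyrosine, gave 139, 104 and 96.4 at P23 and 30652, 40108 and 41049 at P14, a difference of -8.37 ± 0.24. Krtap19-5 gave 4.10, 4.86 and 5.62 at P23 and 6687, 7436 and 7838 at P14. Its P14 signals were the lowest of these 3 genes', and its P23 signals stood among the dimmest of the array, where a level cannot be told from background without detection calls. The fitted difference of Krtap19-5, -10.56, was -7.07 when 50 was added to every signal, whereas that of Krtap9-1 was -9.25 and that of Krt34 -7.84. Krtap13 fell least, by 1.25 on the log2 scale.

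Of 7 inner root sheath and companion layer genes, 6 fell, with a list median of -7.28. Krt25, a keratin of the inner root sheath, gave 32.1, 11.4 and 31.2 at P23 and 25999, 28424 and 27734 at P14, and Krt71, a type II keratin of the same layer, gave 257, 196 and 266 at P23 and 40543, 45231 and 44409 at P14. Neither overlapped between ages, and the differences were -10.25 ± 0.27 and -7.51 ± 0.25 (adjusted p = 2.72e-18 and 1.49e-16). Padi1, which converts arginine to citrulline, fell by 7.47 (-4.70 with 50 added to each signal) and Tchh, trichohyalin, a citrullinated matrix protein, by 4.52 on the log2 scale. Gata3, a transcription factor of the inner root sheath that the interfollicular epidermis also expresses, was the exception, with 1961, 1866 and 2110 at P23 and 2054, 2245 and 2102 at P14 and overlapping groups (adjusted p = 0.558). Of 10 other shaft and matrix proteins, 9 fell, among them Crym (-9.55), Padi3 (-7.57), S100a3 (-6.56) and Tgm3 (-3.96). Crym encodes a thyroid hormone binding protein, and S100a3 a calcium binding protein of the hair cuticle. Fbp1, fructose bisphosphatase of gluconeogenesis and a member of no list, fell by 8.45, to 10.8, 10.7 and 14.7 at P23, against 3577, 4503 and 4486 at P14.

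**Figure D2:**
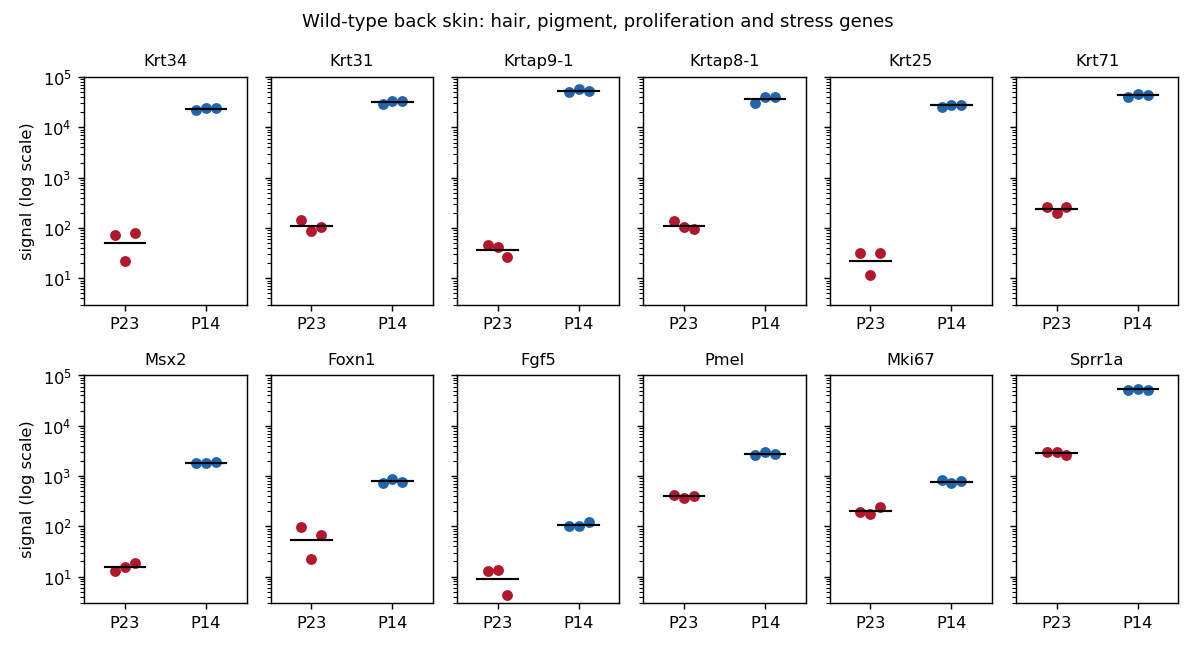
Signal of 12 genes on each wild-type array at P23 (left, red) and P14 (right, blue), on a log axis, with a line at the mean of log2 signal. The 3 arrays of an age lie apart from those of the other age in each panel, for example 26.8 to 46.4 at P23 and 49952 to 58057 at P14 for Krtap9-1.

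Transcription factors that direct the hair matrix fell in most cases. Of 21 measured, 14 fell and 2 rose, with a median of -1.18. Msx2, a homeobox factor needed for shaft differentiation, gave 13.1, 15.8 and 18.4 at P23 and 1799, 1827 and 1902 at P14, and Foxn1, whose loss gives the nude mouse, gave 99.2, 21.98 and 68.3 at P23 and 744, 891 and 752 at P14. Each was low at P23 with no overlap, and the differences were -6.88 ± 0.20 and -3.90 ± 0.41 (adjusted p = 1.53e-17 and 1.21e-07). The distal-less factors fell too, with Dlx3 at -3.77, Dlx2 at -3.23 and Dlx1 at -4.68. With 50 added to each signal these were -3.60, -2.48 and -1.83. Lef1, the Wnt effector of the hair precortex, kept a signal above the array median at P23, with 679.9, 776 and 759 at P23 and 1705, 2126 and 2113 at P14, a difference of -1.42 ± 0.13 (adjusted p = 1.6e-08). Elf5 (-3.47), Runx1 (-2.02), Cux1 (-1.91) and the vitamin D receptor Vdr (-1.07) also fell. Hr, the hairless corepressor, fell by 0.55 (adjusted p = 0.0332) with overlapping arrays, and its call was lost in 7 of 16 other settings, with adjusted p = 0.173 without P14 replicate 1 and 0.274 without P23 replicate 2. The 2 that rose were Klf4 (0.92), an epidermal barrier factor, and Nfib (0.51), a nuclear factor of bulge stem cells. Ldb1, one of the CLIM cofactors that the transgene of this study antagonises, gave 634, 533 and 682 at P23 and 637, 744 and 702 at P14 (adjusted p = 0.382).

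Called genes of the follicle's signalling pathways went both ways. In the hedgehog pathway 3 of 11 genes fell (27.3%) and 1 rose (9.09%), against 18.6% and 21.4% of all genes. The list median was -0.35 (-0.14 with ribosomal centring, under which 2 of the 3 falls were no longer called). Shh, the ligand made by the matrix, fell to 32.4, 109.7 and 105 at P23, against 334, 288 and 280.4 at P14, a difference of -2.06 ± 0.32 (adjusted p = 2.74e-05). Its receptor Ptch1 (-0.35, adjusted p = 0.0596) and its target Gli1 (-0.35, adjusted p = 0.22) did not pass the test. Ptch1 passed when arrays were centred on their medians (adjusted p = 0.0116), and Gli1 passed without P14 replicate 1 (adjusted p = 0.0205). Gas1, a membrane coreceptor, rose by 1.04.

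Of 40 Wnt pathway genes, 12 fell (30%) and 4 rose (10%), against 18.6% and 21.4% of all genes. The list median was -0.26, and -0.04 with arrays centred on ribosomal protein genes. Under that centring 5 of the 12 falls were no longer called. Wnt11, a noncanonical ligand, gave 21.2, 28.03 and 14.0 at P23 and 365, 316 and 459.8 at P14, and Wnt5a gave 103, 103 and 104 at P23 and 310.1, 344 and 361 at P14. Both ligands were low on all P23 arrays, with differences of -4.21 ± 0.42 and -1.71 ± 0.37. Among the genes that rose were 3 secreted inhibitors that bind Wnt ligands. Sfrp4 gave 502, 467 and 614 at P23 and 24.1, 185 and 48.8 at P14, Sfrp2 gave 1119, 863 and 1559 at P23 and 229.5, 211 and 160.2 at P14 and Frzb gave 86.5, 32.9 and 118 at P23 and 11.8, 12.8 and 10.7 at P14. The inhibitors were higher on each P23 array than on any P14 array, with differences of 3.12 ± 0.58, 2.53 ± 0.24 and 2.57 ± 0.51. Where 1 age was dim the size depended on low signals, since with 50 added to each signal Frzb was 1.004 and Wnt11 -2.59. The Wnt target Axin2 had a difference of -0.31 ± 0.20 (adjusted p = 0.246).

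In the BMP, TGF-beta and activin pathways 10 of 43 genes fell (23.3%) and 8 rose (18.6%), near the 18.6% and 21.4% of all genes. The median of -0.20 turned to 0.01 when arrays were centred on ribosomal protein genes and was also positive over probe sets at or above the median signal. Ligands and intracellular inhibitors were among those that fell, with Smad6 at -2.09, Bmp8a at -1.67, Bmp2 at -1.43 and Bmp7 at -1.11. Bmp4, the BMP of the dermal papilla, gave 487, 525.7 and 528 at P23 and 508, 691 and 588 at P14 (adjusted p = 0.301), with the brighter of 2 probe sets, and the other probe set passed as higher. Ltbp1, Tgfbi and Fst were among those that rose. Ltbp1, which holds latent TGF-beta in the matrix, had a difference of 2.74 ± 0.55 (1.58 with 50 added to each signal), and Tgfbi, a TGF-beta induced matrix protein, gave 2808, 2780 and 3262 at P23 and 489, 382 and 499.9 at P14, a difference of 2.70 ± 0.14. Fst, follistatin, which binds activin, was higher by 1.02.

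Of 38 genes of the FGF, EGF and IGF families, 12 rose (31.6%) and 6 fell (15.8%), with a median of 0.43. Of all genes 21.4% rose and 18.6% fell. Fgf5, the ligand whose loss prolongs anagen and gives the angora coat, gave 13.2, 13.5 and 4.23 at P23 and 101, 103 and 124 at P14, a difference of -3.58 ± 0.49 (adjusted p = 4.42e-06), which was -1.40 with 50 added to each signal. Of the EGF receptor's ligands, Egf and Btc rose above dim P14 signals. Egf gave 343, 350.0 and 314 at P23 and 18.01, 36.6 and 19.3 at P14 and Btc, betacellulin, gave 80.1, 71.1 and 112 at P23 and 7.502, 10.5 and 5.86 at P14, with differences of 3.84 ± 0.57 and 3.48 ± 0.71, which were 2.38 and 1.24 with 50 added to each signal. Egfr (-1.05), Tgfa (-1.24) and Hbegf (-1.08) fell. Igfbp3, an IGF binding protein, gave 2956, 2731 and 2723 at P23 and 399.9, 338 and 465 at P14, a difference of 2.82 ± 0.21. Igf1 fell by 0.72 by its brighter probe set while its other probe set passed as higher, so its direction is uncertain. Fgf7, a dermal papilla factor, had a difference of 0.55 ± 0.36 (adjusted p = 0.258).

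Of 18 Notch pathway genes, 3 rose (16.7%) and 2 fell (11.1%), below the 21.4% and 18.6% of all genes. The list median of 0.10 turned to -0.02 with arrays centred on their medians. Hey1, a target of the pathway, was among the 3, at 0.84 (adjusted p = 0.0478), and its call was lost in 11 of 16 other settings. Notch1 fell by 1.23 on the log2 scale, with 1103, 1069 and 1171 at P23 and 2224, 2910 and 2752 at P14.

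Pigment genes were lower at P23. Of 13 melanocyte and pigment genes, 9 fell and 2 rose, with a median of -1.66. Pmel, the fibre protein of the melanosome, gave 423, 363 and 406 at P23 and 2594, 2986 and 2793 at P14, a difference of -2.81 ± 0.21 (adjusted p = 5.15e-10). The melanin enzyme genes Tyrp1 (-2.26), Tyr (-1.69) and Dct (-1.66) fell, as did the melanosomal proteins Gpr143 (-3.40) and Oca2 (-3.12) and the regulator Mitf (-1.75). The 2 that rose were Kitl (0.49), the ligand of the melanocyte receptor Kit, and Sox10 (0.42), a factor that Schwann cells also express. Both rises lost their call in several settings, 7 of 16 for Kitl and 3 of 16 for Sox10, as did the fall of Mitf in 1. With 50 added to each signal Gpr143 was -1.38 and Tyr -1.09. Summed signal of the list (log2) was 11.74 to 11.89 at P23 and 13.15 to 13.41 at P14.

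Genes of cell division were lower at P23. Of 49 mitosis and G2/M genes, 32 fell and 0 rose, with a median of -0.95. At unadjusted p under 0.05, 0 of these genes were higher. With arrays centred on ribosomal protein genes, 8 of the 32 falls were no longer called. Mybl2, a transcription factor of late cell cycle genes, gave 40.1, 35.8 and 18.02 at P23 and 489.6, 556 and 400.4 at P14. Mki67, the proliferation marker, gave 192, 177 and 238 at P23 and 830.3, 713 and 789.6 at P14, and Cdc20, an activator of the anaphase promoting complex, gave 412, 510.2 and 449 at P23 and 2059, 1615 and 1837 at P14. The groups did not overlap, and the differences were -4.01 ± 0.29, -1.95 ± 0.22 and -2.01 ± 0.15 (adjusted p = 2.87e-10, 3.14e-07 and 4.21e-10). Cdk1 (-1.63), Ccnb2 (-1.57) and Top2a (-1.07) fell too, and Dlgap5, a spindle protein, fell by 3.31 on the log2 scale (-1.58 with 50 added to each signal). The promoters of Cdc20 and Mki67 are those printed above with TTTGAA.

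Replication genes had a median closer to 0. Of 45 genes of DNA replication and S phase, 16 fell (35.6%) and 1 rose (2.22%), against 18.6% and 21.4% of all genes. The median of -0.28 was -0.07 with arrays centred on ribosomal protein genes, under which 7 of the 16 falls were no longer called. The ribonucleotide reductase subunits Rrm2 (-1.38) and Rrm1 (-1.31), thymidine kinase Tk1 (-1.10) and DNA ligase Lig1 (-1.01) fell, whereas Pcna, the replication clamp, gave 935, 1341 and 1335 at P23 and 1407, 1330 and 1370 at P14 (adjusted p = 0.339). E2f1 was the gene that rose, by 1.91, to 166, 193 and 188 at P23, against 27.4, 42.9 and 95.6 at P14 (1.19 with 50 added to each signal). Among 28 cyclins D, CDK inhibitors and related regulators, 8 rose and 8 fell (28.6% each), against 21.4% and 18.6% of all genes. Mycn, a Myc family factor, gave 30.4, 67.7 and 86.2 at P23 and 483, 511 and 543 at P14, a difference of -3.19 ± 0.37, and the Myc antagonist Mxd1 fell by 2.86. The CDK inhibitor genes differed in direction, since Cdkn1a fell by 1.05 and Cdkn1c rose by 1.12. Ccng1, cyclin G1, a p53 target, gave 1070, 969 and 1643 at P23 and 237, 140.2 and 215 at P14, a difference of 2.63 ± 0.24.

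Most called genes of ribosome production and protein turnover were lower at P23, by an amount that depended on the scaling. Of 25 nucleolar genes, 10 fell and 0 rose, with a median of -0.45 (0 higher at an unadjusted p under 0.05 in limma). Npm1, nucleophosmin, gave 2935, 2861 and 3357 at P23 and 5764, 6997 and 7505 at P14, and Ncl, nucleolin, gave 2385, 2746 and 2973 at P23 and 5320, 5552 and 5844 at P14, differences of -1.14 ± 0.13 and -1.05 ± 0.12. Of 35 ribosomal protein genes, 24 fell, led by Rps13 (-2.52) and Rpl38 (-2.04, or -1.18 with 50 added to each signal), and 2 rose, Rpl22 (1.18) and Rpl39l (1.17). Their median of -0.81 was -0.18 under quantile normalization, in which Rps28, Rps4x, Rps3a1, Rps7, Rplp0 and Rpl7 turned positive. Of 37 proteasome genes, 19 fell and 3 rose, with a median of -0.54. The core subunit Psmb2 fell by 1.30, while the 3 that rose were the interferon-inducible immunoproteasome subunits Psmb9 (2.89), Psmb8 (1.84) and Psmb10 (0.59). The Psmb10 call (adjusted p = 0.0496) was lost in 9 of 16 other settings. With arrays centred on ribosomal protein genes, the medians were -0.24 for nucleolar, -0.32 for proteasome and -0.59 for ribosomal protein genes. That centring used all ribosomal protein probe sets, so the brightest probe set of each gene was not held level. Under it, 9 of the 19 proteasome, 8 of the 24 ribosomal protein and 2 of the 10 nucleolar falls were no longer called.

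Genes listed for the bulge rose in the majority, but several are not specific to it. Itga6 and Col17a1 are also in the basal keratinocyte list, and Ccn2 and Tnc in the dermal matrix list. The rises therefore cannot be assigned to bulge cells, and Krt15 was too dim to read. Of 25 genes listed for bulge stem cells, 14 rose (56%) and 4 fell (16%), against 21.4% and 18.6% of all genes. The list median was 0.54. Cd34, the surface marker of mouse bulge cells, which endothelial cells also carry, gave 1601, 1894 and 2102 at P23 and 389, 461 and 526.4 at P14. The integrin gene Itga6 gave 614, 534 and 801 at P23 and 199.5, 174 and 172 at P14 and S100a4 gave 1793, 1863 and 2093 at P23 and 544, 532 and 542 at P14. All 3 were higher on each P23 array than on any P14 array, with differences of 2.02 ± 0.23, 1.82 ± 0.23 and 1.83 ± 0.19 (adjusted p = 2.74e-07, 1.83e-06 and 7.14e-08). Ccn2 (1.63), the latent TGF-beta binding protein Ltbp2 (1.49), the hemidesmosome collagen Col17a1 (1.48), nephronectin Npnt (1.13), Cd200 (1.05) and the transcription factor Nfatc1 (0.97) rose. The 4 that fell were the matrix protein Tnc (-1.15), S100a6 (-1.11), Aldh1a3 (-1.02, call lost in 2 of 16 other settings) and the Wnt receptor Fzd2 (-0.85). Lgr5, a marker of cycling follicle stem cells, gave 18.5, 31.1 and 82.3 at P23 and 129, 17.3 and 53.8 at P14, with overlapping groups (adjusted p = 0.657).

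Of 14 dermal papilla genes, 4 rose (28.6%) and 2 fell (14.3%), against 21.4% and 18.6% of all genes, with a median of 0.73. Corin, a protease of the anagen papilla, fell by 2.96 (-1.60 with 50 added to each signal) and Wnt5a by 1.71 on the log2 scale. Igfbp3 (2.82), Crabp1 (1.43), Sox18 (1.25) and the proteoglycan Vcan (1.22) rose, and each of these 4 is known from other dermal or vascular cells as well.

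Interfollicular epidermis showed a mixed pattern. Of 20 epidermal differentiation genes, 11 rose (55%) and 5 fell (25%), against 21.4% and 18.6% of all genes, with a median of 0.61. Krt1, a suprabasal keratin, gave 4312, 6104 and 6897 at P23 and 979, 891 and 971 at P14, a difference of 2.58 ± 0.18 (adjusted p = 1.81e-10), and Krt10, its partner, rose by 0.94. Hal, histidase, which makes urocanic acid, gave 1591, 2030 and 2119 at P23 and 489, 471 and 409 at P14, a difference of 2.06 ± 0.22, and Alox12b, a lipoxygenase of the lipid barrier, rose by 1.91. Involucrin, Ivl, a cornified envelope precursor that the follicle also makes, fell to 152, 99.3 and 150.4 at P23, against 1153, 1056 and 1230 at P14, a difference of -3.12 ± 0.34. Crct1 (-1.50) and corneodesmosin, Cdsn (-1.35), fell too. Summed signals of the list overlapped, at 16.73 to 16.79 at P23 and 16.73 to 16.75 at P14 (log2).

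Genes of the keratinocyte stress response, several of which the growing follicle also makes, were lower at P23. Of 25, 18 fell (72%) and 1 rose (4%). With arrays centred on ribosomal protein genes, 7 of the 18 falls were no longer called. The small proline-rich gene Sprr1a gave 3034, 2949 and 2614 at P23 and 52525, 52834 and 52576 at P14, a difference of -4.20 ± 0.17. Krt17, a keratin of the outer root sheath and of wounded epidermis, gave 3005, 3440 and 3828 at P23 and 19186, 19391 and 17696 at P14, a difference of -2.46 ± 0.15. Sprr2h (-6.83), Krt16 (-3.08), S100a8 (-2.77) and Krt6a (-1.16) fell with them. Within the same family Sprr2g went the other way, with 1534, 1851 and 1587 at P23 and 199.9, 210.1 and 233 at P14, a difference of 2.95 ± 0.19 (adjusted p = 3.53e-11). The Sprr2 genes are near-identical copies, so signal of 1 gene in the probe set of another cannot be told apart.

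Basal keratinocyte and hemidesmosome genes split, with 7 of 19 higher and 7 lower (36.8% each), against 21.4% and 18.6% of all genes. Those higher were Itga6 (1.82), Plec (1.48), Col17a1 (1.48), Col7a1 (1.30), Lamb3 (1.09), Itgb4 (0.62) and Itgb1 (0.53), the Itgb4 call being lost in 3 of 16 other settings. Other genes of basement membrane adhesion fell, namely the laminin chain Lama5 (-1.03) and the integrin Itga3 (-0.85). Those lower also included Sfn, stratifin, at -2.69, the zinc finger factor Bnc1 at -1.64 and P-cadherin, Cdh3, at -1.02. Krt5 was lower by 2.09 from dim signals of 15.4, 32.9 and 13.9 at P23 and 84.2, 42.5 and 151 at P14, and its adjusted p of 0.0132 (limma; difference -0.95 with 50 added to each signal) became 0.0832 without P14 replicate 3 and 0.0587 without P23 replicate 3. The list median of 0.03 changed sign with arrays centred on their medians and without P14 replicate 3 or P23 replicate 1.

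Lipid genes of the sebaceous gland rose in 9 of 15 cases (60%) and fell in 2 (13.3%), against 21.4% and 18.6% of all genes. The list median was 0.52. Fasn, fatty acid synthase, gave 3203, 5924 and 3997 at P23 and 1599, 1683 and 1493 at P14, a difference of 1.41 ± 0.21, and Mgst1 rose by 1.53. Fat cells express Fasn too. The 2 that fell were Elovl1 (-0.71) and Scd2 (-0.69), which lengthen and desaturate fatty acids. Their calls were lost in 4 and 5 of 16 other settings. Of 18 cholesterol synthesis genes, 13 did not pass, 3 fell, led by Sqle (-1.03), and 2 rose, Sc5d (1.29) and Msmo1 (1.24). The falls were 16.7% and the rises 11.1% of the list, below the 18.6% and 21.4% of all genes.

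The dermal matrix was higher at P23. Of 42 matrix genes other than collagens, 28 rose and 1 fell, with a median of 0.90, and of 28 collagen and collagen processing genes 14 rose and 2 fell, with a median of 0.50. Fmod, fibromodulin, a small proteoglycan of collagen fibrils, gave 579.9, 816 and 792 at P23 and 42.8, 50.4 and 165 at P14, and Lum, lumican, of the same family, gave 5761, 6130 and 6419 at P23 and 1313, 1050 and 1341 at P14. The differences were 3.35 ± 0.53 and 2.31 ± 0.15, and no P14 array reached a P23 array. Lox, which cross-links collagen and elastin, gave 1204, 1436 and 1543 at P23 and 291, 217 and 261 at P14, a difference of 2.45 ± 0.19. The metalloproteinase Mmp3, which degrades matrix, gave 1455, 1269 and 1669 at P23 and 113, 108 and 155 at P14, a difference of 3.56 ± 0.29 (adjusted p = 2.65e-09). Among collagen genes the largest rises were those of the collagen chaperone Serpinh1 (2.22), Col6a2 (1.70) and the prolyl hydroxylase subunit P4ha2 (1.60), and Col18a1 (-1.04) and P4hb (-0.97) fell. The matrix gene that fell was Tnc (-1.15). Col3a1 rose by 0.67, whereas Col1a1 had -0.03 ± 0.17 (adjusted p = 0.907), and quantile normalization gave 1.25 for Col1a1 (adjusted p = 3.48e-08).

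**Figure D3:**
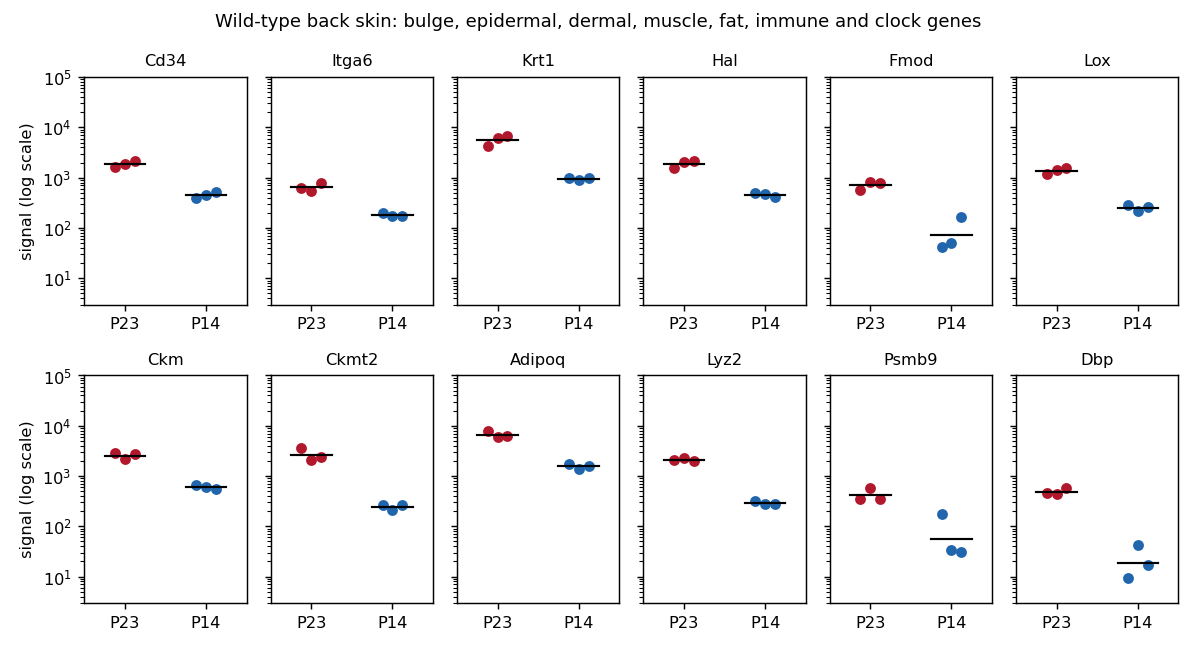
Signal of 12 genes of the bulge, epidermis, dermis, muscle, fat, immune system and clock on each wild-type array at P23 (left, red) and P14 (right, blue), on a log axis, with a line at the mean of log2 signal. In each panel the 3 P23 arrays lie above the 3 P14 arrays, for example 1601 to 2102 at P23 and 389 to 526.4 at P14 for Cd34.

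Skeletal muscle genes had the highest median of the lists, 1.64. Back skin holds a sheet of striated muscle, the panniculus carnosus. Of 49 muscle genes 30 rose and 4 fell, and the summed signal (log2) was 17.40 to 17.72 at P23 and 15.99 to 16.18 at P14. Ckm, muscle creatine kinase, gave 2870, 2154 and 2718 at P23 and 662, 602 and 555 at P14, and Ckmt2, its mitochondrial form, gave 3547, 2051 and 2435 at P23 and 265, 211 and 264 at P14. No overlap was seen, and the differences were 2.08 ± 0.16 and 3.41 ± 0.26. Pygm, glycogen phosphorylase of muscle, rose by 3.27, the calcium release channel Ryr1 by 3.14 and the fast adult myosin Myh4 by 2.03. The genes that fell were Myh8, the perinatal myosin, with 38.2, 85.0 and 101 at P23 and 282, 349 and 289.6 at P14, the slow fibre troponins Tnni1 (-1.27) and Tnnt1 (-1.08, call lost in 10 of 16 other settings), and Tpm1 (-1.83). The amount of muscle left on each piece of skin at dissection is not given, and its part in the result was not tested.

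Of 29 genes of glycolysis and the TCA cycle, 14 rose and 1 fell, with the muscle forms Pgam2 (3.22), Pfkm (2.27) and Eno3 (2.23) in front and Hk1 (-0.91), a hexokinase of most tissues, lower. Of 68 respiratory chain genes, 21 rose (30.9%) and 9 fell (13.2%), against 21.4% and 18.6% of all genes. The median of 0.08 turned to -0.05 with arrays centred on their medians. The rises were led by the muscle forms Cox7a1 (2.86) and Cox6a2 (1.75), with Cycs at 1.26, and the falls by Cox7a2 (-0.89), the form of other tissues. With arrays centred on ribosomal protein genes, 8 of the 9 falls and 2 of the 21 rises were no longer called. Cox7a2 kept its call.

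Of 28 adipocyte genes, 19 rose and 2 fell, with a median of 1.61. Adipoq, the hormone adiponectin, gave 7743, 5927 and 6323 at P23 and 1707, 1402 and 1577 at P14, and the insulin-dependent glucose transporter Slc2a4, which muscle also expresses, gave 598, 469.8 and 619 at P23 and 36.0, 46.9 and 31.8 at P14. Both were higher on every P23 array, by 2.09 ± 0.13 and 3.89 ± 0.37. Rbp4 (3.58), Thrsp (2.99), resistin, Retn (2.46), and the regulator Pparg (2.05) rose. Ucp1, the uncoupling protein of brown and beige fat, gave 187, 437 and 54.2 at P23 and 8.75, 14.4 and 5.90 at P14, which spread widely at P23, a difference of 4.18, or 1.94 with 50 added to each signal. The bright gene Apoe, which macrophages and other cells make too, fell to 19807, 18666 and 15450 at P23, against 50687, 56559 and 57838 at P14, and Fabp4 had a difference of 0.14 that did not pass. With these bright genes in it, the summed signal of the list overlapped, at 16.21 to 16.46 at P23 and 16.32 to 16.40 at P14 (log2).

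Most called markers of immune cells were higher at P23. Of 30 macrophage and complement genes, 16 rose and 2 fell, with a median of 1.13. Lyz2, lysozyme of myeloid cells, gave 2096, 2243 and 2007 at P23 and 321, 274 and 279 at P14, and Mrc1, the mannose receptor of tissue macrophages, gave 654, 541 and 832 at P23 and 127, 139 and 58.4 at P14. The groups stood apart by 2.86 ± 0.22 and 2.72 ± 0.29 (adjusted p = 1.27e-09 and 1.21e-07). C1qb (2.37), C1qa (2.03) and the pan-leukocyte gene Ptprc (3.30, or 1.66 with 50 added to each signal) rose as well, and Ctsc (-0.92) and Lgals3 (-0.30), which keratinocytes also express, fell. The Lgals3 call was lost in 7 of 16 other settings. Of 13 MHC class II and Langerhans cell genes, 6 rose and 0 fell (0 lower at unadjusted p under 0.05). H2-Aa gave 3385, 3415 and 3682 at P23 and 1353, 1059 and 1197 at P14 and Cd74, the invariant chain, gave 9418, 8277 and 7885 at P23 and 3854, 2558 and 2461 at P14, differences of 1.54 ± 0.23 and 1.55 ± 0.25.

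Interferon response and MHC class I genes rose in 22 of 37 cases and fell in 0, with a median of 1.11, and 1 was lower at an unadjusted p under 0.05. Psmb9 of the immunoproteasome gave 356, 586 and 355 at P23 and 175, 34.3 and 30.7 at P14, Ifi204 gave 713, 537 and 696 at P23 and 90.9, 90.6 and 72.0 at P14, and the GTPase Irgm1 gave 131, 153 and 152 at P23 and 12.6, 6.85 and 11.97 at P14. These stood at 2.89 ± 0.54, 2.94 ± 0.27 and 3.84 ± 0.69, the last being 1.69 with 50 added to each signal. B2m, the light chain of MHC class I, rose by 1.73 and H2-K1 by 1.33. Among 23 chemokines, 6 rose (26.1%) and 1 fell (4.35%), against 21.4% and 18.6% of all genes. Cxcl9 (3.25), an interferon-induced ligand of T cells, Cxcl13 (2.44), Ccl9 (2.29) and the eosinophil chemokine Ccl11 (2.27) rose, and Cxcl14 (-1.22), made by keratinocytes, fell. With 50 added to each signal Cxcl9 was 1.10, Cxcl13 0.97 and Ccl11 1.42. The chemokine median of 0.28 turned to -0.06 in the lowest of its settings, and was negative without P23 replicate 2 and over probe sets at or above the median signal.

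Lymphocyte lists had fewer calls, with 26.3% of T cell genes higher and 5.26% lower, against 21.4% and 18.6% of all genes. Of 19 T cell genes 5 rose and 1 fell, with Cd3g (2.80), Itgae (2.35), Cd7 (1.82), Thy1 (1.74) and Cd3e (1.39) higher, the Cd3g call being lost without P14 replicate 2 (adjusted p = 0.0586). The 1 that fell was Zap70 (-2.09 by its brightest probe set), which had probe sets called in opposite directions, so its direction is uncertain. The T cell median of 0.28 turned to -0.05 without P23 replicate 2. Of 8 B cell genes, Ighm alone was called, with probe sets in both directions. Of 13 mast cell genes, 4 rose, namely Mcpt4 (3.75), Cpa3 (2.23), Hdc (2.23) and Cma1 (1.44), all expressed by connective tissue mast cells, and 2 fell, Mcpt1 (-2.06), a protease of mucosal mast cells, and the receptor subunit Fcer1a (-2.06). The Fcer1a call was lost in 3 other settings, with adjusted p = 0.19 without P23 replicate 1, 0.0693 without P14 replicate 1 and 0.0707 without P14 replicate 2. With 50 added to each signal, Fcer1a was -0.63, Mcpt4 1.44, Hdc 1.34, Cd3g 1.17 and Itgae 1.09. Cpa3, carboxypeptidase of mast cell granules, gave 1094, 1048 and 1265 at P23 and 297, 213 and 222 at P14. Of the mast cell list 30.8% rose and 15.4% fell.

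Most called vessel and nerve markers were higher at P23. Of 22 endothelial genes, 12 rose and 0 fell (2 lower at unadjusted p under 0.05), with a median of 0.93. Lyve1, of lymphatic vessels, gave 266, 316 and 256 at P23 and 106, 109 and 62.0 at P14, a difference of 1.64 ± 0.26, and Emcn (1.39), Flt1 (1.40) and Cdh5 (1.16) rose. Of 12 smooth muscle and pericyte genes 5 rose (41.7%), led by Pdgfrb (1.39), and 2 fell (16.7%), led by Smtn (-1.41). Of 13 Schwann cell genes 6 rose (46.2%) and 3 fell (23.1%). Over all genes 21.4% rose and 18.6% fell. The myelin gene Mbp gave 1362, 1118 and 1400 at P23 and 367, 239 and 223 at P14, a difference of 2.26 ± 0.22. Pmp22, another myelin gene, gave 4358, 4035 and 4042 at P23 and 897, 1031 and 748 at P14, a difference of 2.23 ± 0.18, while Cnp (-1.81), also a myelin gene, and the immediate early factor Egr2 (-1.01) fell. Cnp was -0.68 with 50 added to each signal and lost its call in 2 of 16 other settings, and Flt1 in 1.

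Of 18 clock and clock-controlled genes, 9 rose (50%) and 3 fell (16.7%), against 21.4% and 18.6% of all genes. Dbp, a clock output factor, gave 469, 444 and 573 at P23 and 9.45, 42.1 and 17.2 at P14, a difference of 4.70 ± 0.59 (adjusted p = 1.43e-06), and Nr1d2, a repressor of the clock loop, gave 1241, 1180 and 1239 at P23 and 246, 247 and 219.8 at P14, a difference of 2.36 ± 0.13. Per2 (1.77), Nr1d1 (1.32) and Per1 (1.11) were higher with them, and the activator Arntl was at -0.25 ± 0.19 (adjusted p = 0.342). The 3 that fell were the kinases Csnk1d (-1.30) and Csnk1e (-1.09) and the repressor Cry1 (-0.71), whose call was lost in 1 of 16 other settings. With 50 added to each signal Dbp was 2.92 and Per2 1.09. Since these genes cycle over the day and the hour of collection is not given, age and time of day cannot be told apart.

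Outside the lists, some of the largest rises were of genes with other roles. Mef2c, a transcription factor of muscle, vessels and other cells, gave 693, 651 and 574 at P23 and 8.92, 85.1 and 10.3 at P14, a difference of 5.01 ± 0.66 that was 3.13 with 50 added to each signal, and its 4 probe sets were all called higher. Zbtb16, a glucocorticoid-responsive zinc finger gene also known as PLZF, gave 4001, 1876 and 4132 at P23 and 175, 108 and 114 at P14, a difference of 4.61 ± 0.44. Aldh1a1, a retinaldehyde dehydrogenase, gave 1691, 1252 and 1887 at P23 and 139.5, 119 and 104 at P14, a difference of 3.73 ± 0.25. Kcna1 (4.36), a voltage-gated potassium channel, Tspan8 (4.34), a tetraspanin, the proteoglycan Spock2 (3.89) and the focal adhesion protein Tns2 (3.75) also rose. With 50 added to each signal their differences were 2.71, 2.17, 2.68 and 2.64. Zbtb16, Aldh1a1 and Spock2 had 2 probe sets each, of which 1 was called. Each gene named in this paragraph met the signal limit of the naming rule through P23 alone.

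**Figure D4:**
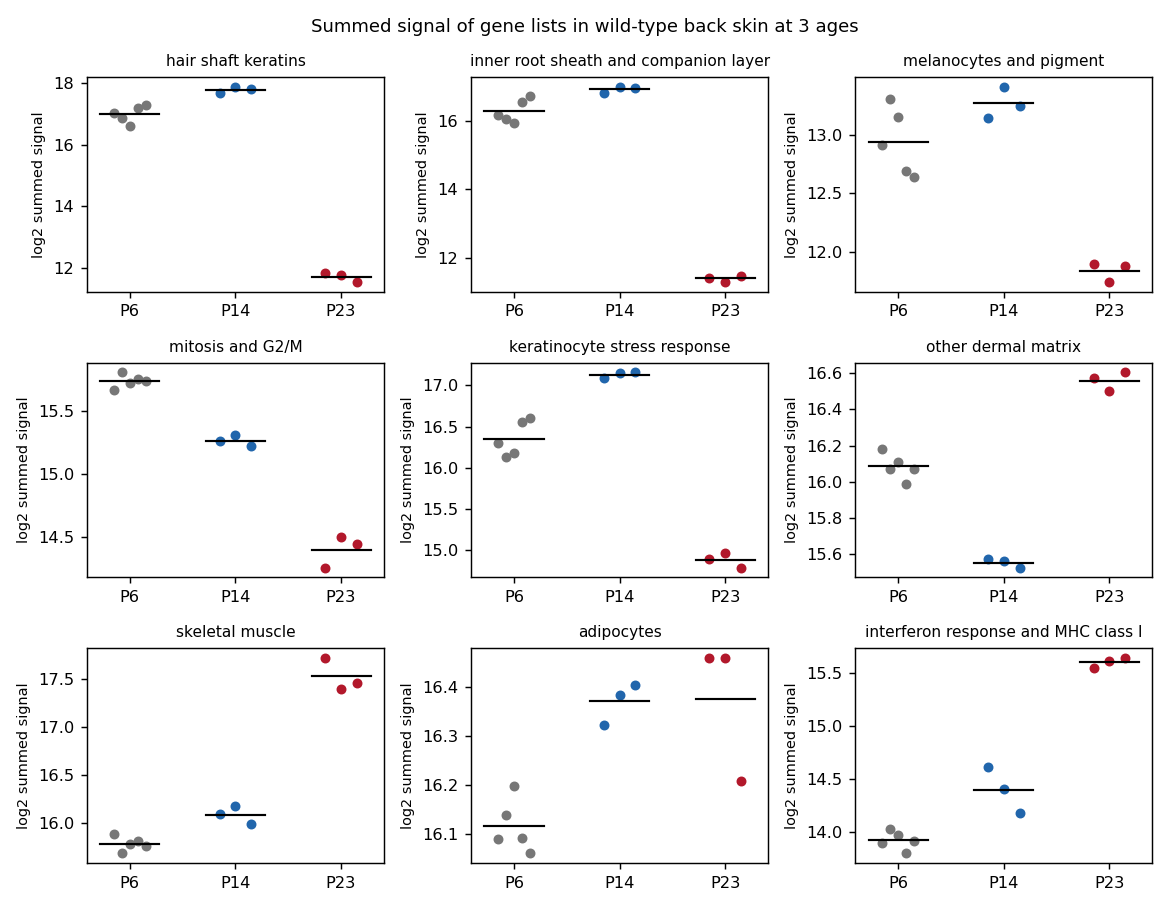
Log2 of the summed signal of 9 gene lists on each wild-type array at P6, P14 and P23, with a line at the mean. Hair shaft keratins were at 16.60 to 17.29 at P6, 17.67 to 17.87 at P14 and 11.54 to 11.82 at P23, and muscle genes at 15.68 to 15.88, 15.99 to 16.18 and 17.40 to 17.72 at the same ages.

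The P6 arrays place these values in the growth period. Summed signals of hair shaft keratins (log2) were 16.60 to 17.29 at P6, 17.67 to 17.87 at P14 and 11.54 to 11.82 at P23. Mitosis genes had 15.67 to 15.81, 15.22 to 15.31 and 14.26 to 14.50 at the same ages. Both lists were lowest at P23, the mitosis genes having already been lower at P14 than at P6 on every array. The dermal matrix list was lowest at P14, at 15.53 to 15.57, with 15.99 to 16.18 at P6 and 16.50 to 16.61 at P23. Interferon response and MHC class I genes had 13.80 to 14.03 at P6, 14.18 to 14.61 at P14 and 15.54 to 15.64 at P23. The P6 comparisons are given as levels, with no test.

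The same age change was measured in DN-CLIM skin. There 4499 probe sets (36.2%) were called between P23 and P14, and of the 4315 probe sets called in wild-type skin 4229 moved in the same direction. Pearson's r between the DN-CLIM and wild-type differences was 0.832 over all probe sets and 0.957 over those at or above the median signal, a description across genes on arrays that share no sample between genotypes. List medians in DN-CLIM and wild-type skin were -5.98 and -6.10 for hair shaft keratins, -1.02 and -0.95 for mitosis genes, and 1.59 and 1.64 for muscle genes. They lay further apart for other lists, at 1.45 and 0.92 for MHC class II genes, -0.04 and 0.43 for the FGF, EGF and IGF families, and -0.74 and -1.14 for the stress response. T cell genes had -0.03 and 0.28, Schwann cell genes -0.0005 and 0.36, and replication genes -0.47 and -0.28. An unadjusted p under 0.05 for the difference between genotypes was found in 7 of 25 stress response and 8 of 45 replication genes. These were the highest counts of any list, but counts depend on list size. Among small lists, such a p was found in 3 of 11 keratin-associated protein genes and 2 of 7 inner root sheath and companion layer genes. The stress list holds near-identical Sprr2 copies, and the lists themselves were not tested. The difference of the age changes, DN-CLIM minus wild type, passed for 0 of 12422 probe sets (0%) in limma, with a smallest adjusted p of 0.207. Over all probe sets, 601 had an unadjusted p under 0.05, against 621 expected if none differed. The 10 probe sets of 1 gene with the smallest p were those of Cox5a, Cox6b2, Meg3, Aebp2, Ncam1, Ctf1, Gli1, Reln, Camsap1 and Zap70. They were taken from all probe sets, not only the brightest of each gene. The Cox5a probe set was among the dim ones, with 24.4, 32.9 and 14.8 at P23 and 5.35, 6.68 and 3.13 at P14 in wild-type skin. Meg3, an imprinted noncoding RNA, had an age difference of 0.76 in DN-CLIM skin and 3.23 in wild-type skin, and Gli1 had -1.73 and -0.35. For Meg3 the difference between genotypes was -2.47 ± 0.50 and for Gli1 -1.38 ± 0.30 (SE, adjusted p = 0.207 and 0.209). A p that misses the threshold does not show that the age changes were alike.

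**Figure D5:**
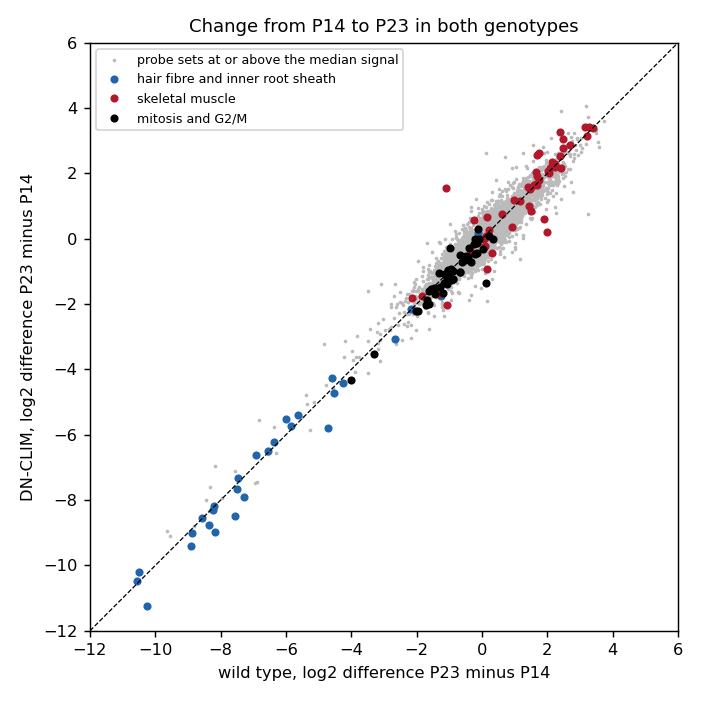
Log2 difference in signal, P23 minus P14, in DN-CLIM skin (vertical) against wild-type skin (horizontal) for probe sets at or above the median signal (grey) and for 3 groups of listed genes. Points lie along the dashed line of equal change, with Krt25 at -11.23 in DN-CLIM skin and -10.25 in wild-type skin.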

How the data were processed

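The deposited table holds MAS5 signal intensity on a linear scale for 12488 probe sets on 22 Affymetrix-type arrays, processed with MAS5 per the submitters' processing notes, with no version given. Trimmed means of 500.2 to 500.3 on every array (2% trimmed at each end) show that the authors scaled the arrays. Here 66 control probe sets were left out, log2 was taken with no further normalization, and the 6 group means were estimated over 22 arrays with limma 3.58.1 under R 4.3.3 (eBayes with a trend, Benjamini-Hochberg, threshold 0.05). The design's test was kept, with log2 taken because the values were linear. GEO's platform annotation gave 1 gene for 10855 probe sets, several for 396 and none for 1237, and a gene is represented by its brightest probe set. A gene's other probe sets did not always pass, and 1 of 2 was called for Egf, Slc2a4, Krt10 and Mki67, for example. Among list members, Igf1, Ighm, Mb, Numb, Rps4x and Zap70 had probe sets called in both directions. Detection calls were not used. Simulated data with 200 changed probe sets among 12422 gave back 51% of changes of 1 and 73% of changes of 2 (log2) for P23 minus P14, with 4 false calls. Far more probe sets were called in the data than were changed in the simulation, which drew noise separately for each. Its rates therefore do not describe this contrast. Genes were named as the 15 largest non-overlapping rises and falls with the higher group's mean at or above the median signal (a gene could pass through 1 age alone), up to 5 called members a list with others given by value, the 10 smallest p between genotypes, and a fixed set. Members and lists were chosen with earlier results of these data known. Alternatives were a signal filter, quantile, median and ribosomal centring, 50 added to signals, no trend, array weights, a sex covariate, fewer arrays, a replicate block and leaving out each array.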

Additional observations from a re-analysis of the deposited data

How the results depend on the processing

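The count of probe sets called between P23 and P14 in wild-type skin, 4315, ranged over 10 other analyses that kept every array of both groups from 3364 (probe sets at or above the median signal only, 6211 tested) to 5119 (array weights), and from 3584 to 3785 with 1 array left out. All lay within 1.5 times 4315. Of 622 called genes followed through 16 settings, 464 stayed called in each setting that tested them, 158 lost the call in at least 1, and 6 changed direction. The setting in which most of them lost their call, 89, was centring on ribosomal protein genes. Genes below the median signal were not tested under the signal filter, which the counts out of 16 still include. Those 6 were ribosomal protein genes under quantile normalization, at 0.0163 for Rpl7, 0.0348 for Rplp0, 0.359 for Rps28, 0.0901 for Rps3a1, 0.269 for Rps4x and 0.0358 for Rps7. Genes that were not called changed sign too. Centring on ribosomal protein genes gave 0.0107 for Bmp4, 0.184 for Col1a1, 0.106 for Gata3, 0.0395 for Ldb1 and 0.0101 for Pcna. Col1a1 was 1.25 under quantile normalization and -0.102 to 0.042 with 1 array left out, positive without P14 replicate 2 or P23 replicate 3, and Lgr5 was -1.21 to 0.245 with 1 array left out, positive without P14 replicate 1 or P23 replicate 1. The cause of these changes was not tested. The difference of age changes between genotypes, with 0 calls, had 10 with centring on ribosomal protein genes, 15 with array weights, 2 with only the P14 and P23 arrays, and 0 to 2 with 1 array left out (1 without DN-CLIM P14 replicate 1, and 2 without DN-CLIM P14 replicate 3 or wild-type P14 replicate 2). With ribosomal centring the median of that difference over all probe sets was -0.60, against -0.04 as scaled by the authors. With the replicate number as a block the count of wild-type calls was 4165. Deviations of arrays with the same number correlated at -0.01, -0.02 and 0.02, so the numbers were not taken as pairs. Calls were more frequent among bright probe sets, with 51.0% of those above the median signal and 18.5% of those below it called. The reason was not tested.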

Other observations

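Further gene lists outside the follicle, dermis and immune system were measured, against 21.4% of all genes called higher and 18.6% called lower. Of 20 imprinted growth genes, 11 rose and 1 fell, with a median of 0.74 beside -0.01 over all genes. Gatm, which makes the creatine precursor, gave 952, 912 and 946 at P23 and 151, 158 and 125 at P14, a difference of 2.70 ± 0.20 (limma, adjusted p = 3.57e-10). Plagl1 (2.19), Ndn (2.12) and Cdkn1c (1.12) were higher, and Phlda2 (-1.98) was lower. Of 11 genes of arginine and polyamine metabolism, 5 fell and 1 rose, with a median of -0.91. The arginases Arg2 (-1.62) and Arg1 (-1.35) and the arginine synthesis gene Ass1 (-1.25) fell, and Oat (0.87), ornithine aminotransferase, rose.

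Of 13 erythroid genes, 4 fell and 0 rose in limma, with 1 higher at an unadjusted p under 0.05. Car2 (-2.22), also made by other cells, Slc4a1 (-1.34), Alas2 (-1.12) and Tfrc (-0.65) were lower, whereas the haemoglobin genes Hbb-b2 (-0.43, adjusted p = 0.231) and Hba-a1 (-0.30, adjusted p = 0.255) did not pass. The Tfrc call was lost in 2 of 16 other settings. Immediate early genes were called both ways, with 8 of 26 higher, among them Dusp1 (2.34) and Fos (1.04), and 9 lower, among them Gadd45a (-1.92) and Junb (-1.29). Of 39 heat shock proteins and chaperones, 9 rose, led by Dnajb9 (2.57), a chaperone of the endoplasmic reticulum, and 8 fell, led by Hspa2 (-1.56), or 23.1% and 20.5%, near the shares over all genes.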
